A study of Rattus norvegicus with 6 samples.

Results

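Acetylcholine is made by choline acetyltransferase (Chat), loaded into synaptic vesicles by the vesicular acetylcholine transporter (Slc18a3) and broken down in the synapse by acetylcholinesterase (Ache), and the choline that is set free is taken back into the terminal by the high-affinity choline transporter (Slc5a7). Its slow actions run through muscarinic receptors, of which the products of Chrm1, Chrm3 and Chrm5 couple to Gq and phospholipase C, and those of Chrm2 and Chrm4 to Gi and the inhibition of adenylyl cyclase. The amygdala, above all its basolateral nucleus, receives dense cholinergic fibres whose cell bodies lie in the basal forebrain, so most of the acetylcholine used there is made in neurons outside it. The mRNAs of these 9 genes were measured in the rat amygdala. They were found by their rat gene symbol among the 38445 genes of the count files, and all 9 were present.

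Adult male Sprague Dawley rats received an intraperitoneal injection of saline (control) or of ethanol at 1 g/kg, and the amygdala (central, medial and basolateral nuclei) was collected 1 h later. Each library held the pooled RNA of 2 rats, so the 6 rats of a group gave 3 libraries, and the spread between libraries is a spread between pools. The files held 62576504 to 70755739 assigned reads per library, without normalization, and levels are given as CPM, counts relative to the library total, scaled by edgeR's TMM method. At these depths 3 counts equal 0.0422 to 0.0473 CPM, a floor that covers counting error only, and all 9 genes lay above it in every library and passed the filter on low counts. In the ethanol against control comparison, the quasi-likelihood F test of edgeR gave 0 of 18141 genes (0%) a Benjamini-Hochberg adjusted p below 0.2, which is the cutoff the study used, and 752 (4.15%) had an unadjusted p below 0.05. The study did report genes as different at that cutoff. Here the number depended on the test, with 77 genes by edgeR's likelihood ratio test, 75 by DESeq2 and 0 by limma-voom. All 8 listed genes of the central amygdala were detected in each library. So were 10 genes of cortical-type glutamatergic neurons, a class that includes basolateral projection neurons. The striatal-type, hypothalamus and thalamus, and oligodendrocyte genes listed below were detected too, so detection alone cannot tell the labelled tissue from others. Of 8 choroid plexus genes, 7 were expressed, and their summed level was 514 to 1115 CPM in the control and 11.7 to 478 CPM in the ethanol libraries. Its part in the differences between groups given here was not tested.

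None of the 9 genes passed the test for a difference after ethanol. By the edgeR F test, 0 of 9 had an adjusted p below 0.2 and 0 had an unadjusted p below 0.05, beside 0% and 4.15% of all genes tested, and edgeR's likelihood ratio test, DESeq2 and limma-voom also called 0 of the 9. Groups of 3 libraries that did not overlap were found for 0 of the 9 genes and for 8.85% of all genes tested. Log2 fold changes (ethanol over control) ran from -0.64 for Chat to 0.26 for Chrm1 with a median of 0.05, and the median of all genes tested was 0.01. What differed most was the level of Chat, Slc18a3 and Slc5a7 between libraries of the same group: Chat differed 31.4-fold between control libraries 1 and 2, both from saline-treated rats.

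**Figure D1:**
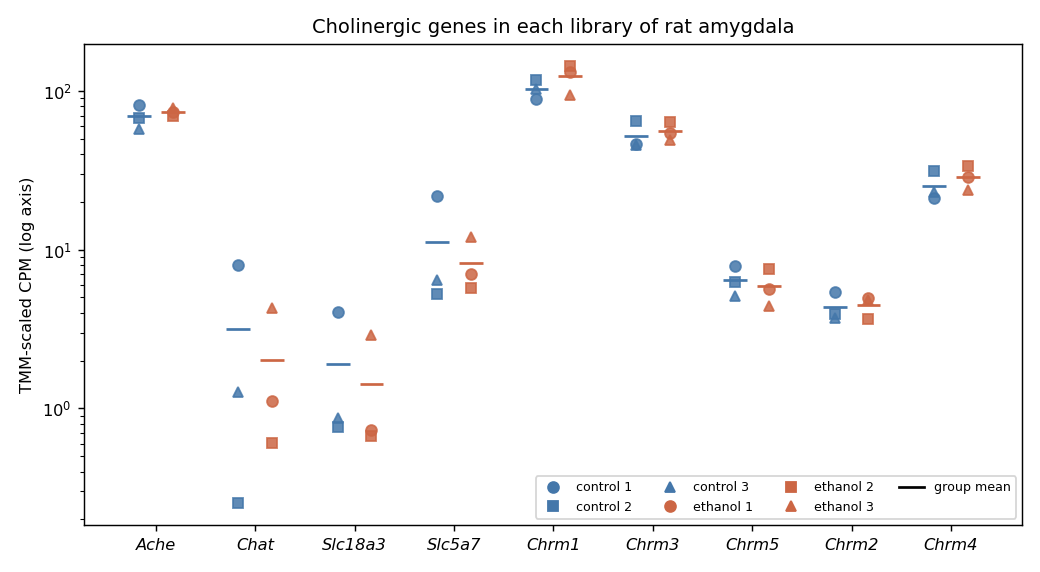
TMM-scaled CPM (log axis) of the 9 genes in the 3 control (blue) and 3 ethanol (orange) libraries, with marker shape for the replicate number and a bar for each group mean. Chat, Slc18a3 and Slc5a7 were highest in control 1 and ethanol 3, while the other genes differed by at most 1.79-fold between any 2 libraries.

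Chat and Slc18a3 belong to the same locus. In the Rnor_6.0 annotation used for counting, Chat (NCBI gene 290567) lies on the minus strand of chromosome 16 from 8576858 to 8686131 in 16 exon blocks. Slc18a3 (NCBI gene 60422, chromosome 16 from 8682668 to 8685529) is a single block of 2862 bases on the same strand. It starts 602 bases and ends 3463 bases after the start of Chat and lies whole within the first Chat intron. The exons of the genes share no base, so reads of spliced Chat mRNA are not counted for Slc18a3, but reads of unspliced Chat transcripts across this intron would be, and their part was not tested. Slc5a7 (NCBI gene 85426) lies elsewhere, on the minus strand of chromosome 9 from 5294377 to 5330822 in 11 exon blocks.

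**Figure D2:**
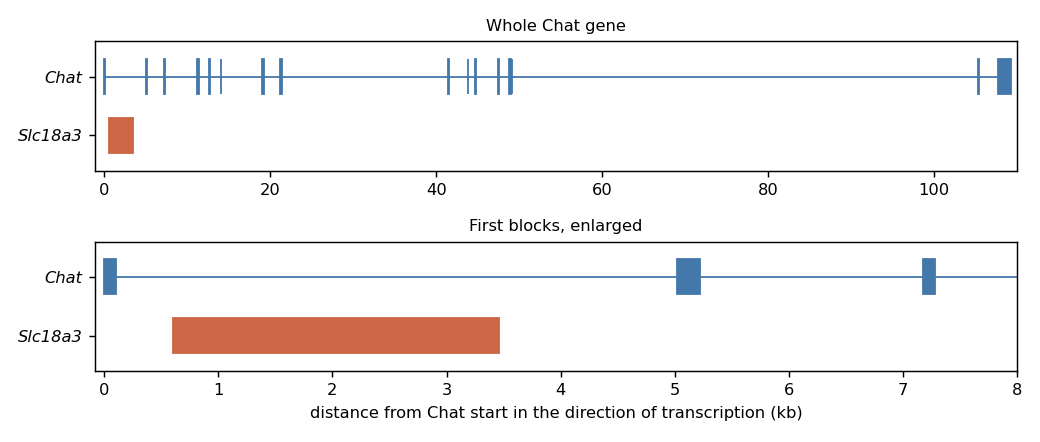
Exon blocks of Chat (blue) and Slc18a3 (orange) against the distance from the Chat start in kb, for the whole gene (top) and its first part (bottom, enlarged). The single Slc18a3 block sits between the first and second Chat blocks.

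The sequences before the starts of these 3 genes are shown because their mRNAs were high in the same libraries. Whether these sequences bear on that pattern was not tested. They are the 250 bases upstream of each annotated start, 5′ to 3′ on the coding strand, from RefSeq on the GRCr8 build, at chr16:7723417-7723666 for Chat, chr16:7722815-7723064 for Slc18a3 and chr9:7953510-7953759 for Slc5a7, all on the minus strand. Capitals mark matches on either strand to the GC box (GGGCGG), the TATA box (TATAAA) and an E-box (CAGCTG).
Chat: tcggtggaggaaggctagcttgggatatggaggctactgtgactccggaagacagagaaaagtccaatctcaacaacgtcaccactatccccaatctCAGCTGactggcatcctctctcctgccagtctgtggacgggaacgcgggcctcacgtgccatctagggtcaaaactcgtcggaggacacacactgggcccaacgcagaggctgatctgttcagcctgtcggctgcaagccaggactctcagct
Slc18a3: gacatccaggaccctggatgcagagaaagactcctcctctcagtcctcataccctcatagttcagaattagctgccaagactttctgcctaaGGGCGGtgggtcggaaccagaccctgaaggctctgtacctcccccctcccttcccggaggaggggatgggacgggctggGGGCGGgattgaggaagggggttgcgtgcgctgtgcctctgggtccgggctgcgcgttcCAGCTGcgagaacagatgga
Slc5a7: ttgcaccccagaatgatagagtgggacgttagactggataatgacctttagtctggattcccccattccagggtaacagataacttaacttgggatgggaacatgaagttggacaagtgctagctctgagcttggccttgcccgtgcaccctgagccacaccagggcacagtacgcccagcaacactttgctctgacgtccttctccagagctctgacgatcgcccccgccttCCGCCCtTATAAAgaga
The window of Slc18a3 falls in the first Chat intron. Of 8 members with such a window, 6 held a GC box, against 30.5% of 33469 windows of the same length, and the windows without it were those of Chat and Chrm1. The E-box was found in Chat and Slc18a3 (11.97% of all windows) and the TATA box in Slc5a7 (12.9%). The cyclic AMP response element TGACGTCA (1.59% of all windows) and the homeodomain core TAATTA (4.86%) were in 0 of the 8. Chat and Slc18a3 thus shared the E-box letters but not the GC box, and the G and C content was 57.2% for Chat, 61.6% for Slc18a3 and 53.2% for Slc5a7, where the median of all windows was 51.2%. Chrm5 had no window.

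Chat, which makes acetylcholine and defines cholinergic neurons, had 520, 18 and 81 counts in control libraries 1, 2 and 3 and 71, 39 and 300 in ethanol libraries 1, 2 and 3. Scaled, these are 7.95, 0.253 and 1.28 CPM in the controls and 1.11, 0.606 and 4.31 CPM after ethanol. Control 1 was the highest and control 2 the lowest of all 6 libraries, and the groups overlapped over the whole range of the ethanol values. Controls averaged 3.16 ± 4.18 CPM and ethanol libraries 2.01 ± 2.01 CPM (SD, n = 3 each). This gave a log2 fold change of -0.64 (standard error 1.09, 95% interval -3.17 to 1.88, edgeR adjusted p = 1.0), and a 2-sided exact permutation test on log2 CPM gave p = 1.0 where the smallest possible with 3 libraries against 3 is 0.1. The interval reaches from 0.111-fold to 3.68-fold, so changes of several fold in either direction were not detectable with these libraries. In bulk tissue, fewer cells of a type and less RNA per cell cannot be told apart, here and in the results that follow.

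Slc18a3 fills synaptic vesicles with acetylcholine. Its levels were 4.05, 0.760 and 0.867 CPM in control libraries 1, 2 and 3 and 0.732, 0.668 and 2.90 CPM in ethanol libraries 1, 2 and 3. As for Chat, control 1 was highest and ethanol 3 next, and the other 4 libraries lay close together between 0.668 and 0.867 CPM. Ethanol over control gave a log2 fold change of -0.39 (standard error 0.78, 95% interval -2.19 to 1.41, edgeR adjusted p = 1.0). Slc5a7 recovers choline, the step that limits acetylcholine synthesis in the terminal. Its levels were 21.7, 5.28 and 6.42 CPM in the controls and 6.98, 5.72 and 12.1 CPM after ethanol. Again control 1 and ethanol 3 stood above the other 4 libraries, which ranged from 5.28 to 6.98 CPM. The log2 fold change was -0.43 (standard error 0.54, 95% interval -1.67 to 0.82, edgeR adjusted p = 1.0).

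The direction of all 3 genes turned when control 1 was left out. Without it the log2 fold change became 1.41 for Chat, 0.82 for Slc18a3 and 0.50 for Slc5a7, and without ethanol 3 it kept its sign at -1.88, -1.43 and -0.81. With both left out, a choice made after the data were seen, it was 0.17 for Chat, -0.22 for Slc18a3 and 0.11 for Slc5a7, with adjusted p of 0.971, 0.865 and 0.903 from the edgeR F test on 2 libraries per group. The spread between libraries within a group, as a pooled SD of log2 CPM, was 1.98 for Chat, 1.24 for Slc18a3 and 0.87 for Slc5a7. An SD at least as large was found for 0.0610% of 14760 genes with a mean of at least 1 CPM in the case of Chat, 0.217% for Slc18a3 and 0.393% for Slc5a7. Counting error was a small part of it, since the chi-square per degree of freedom of the counts within groups was 254 for Chat, 98.9 for Slc18a3 and 298 for Slc5a7.

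The proportion between the mRNAs of the locus was alike in most libraries. Chat reads made up 66.2% of the summed Chat and Slc18a3 reads in control 1 (exact Clopper-Pearson 95% interval 62.8 to 69.5%, counting error only), 59.6% in control 3 (50.8 to 67.9%), 60.2% in ethanol 1 (50.7 to 69.1%) and 59.8% in ethanol 3 (55.3 to 64.1%). Ethanol 2, with 82 reads in all, had 47.6% (36.4 to 58.9%). Control 2, with 18 Chat reads among 72, had 25.0% (15.5 to 36.6%), and its interval did not touch that of control 1, control 3, ethanol 1 or ethanol 3. Slc5a7 differed less than Chat between libraries, and per exon length it was 1.63 times the Chat level in control 1 and 1.68 times in ethanol 3, and 3.01 to 12.5 times in the other 4.

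Other genes of basal forebrain cholinergic neurons were high in the same libraries, and whether control 1 and ethanol 3 held more basal forebrain tissue than the others was not tested. Of 8 genes on this list, 0 had an adjusted p below 0.2 and 0 an unadjusted p below 0.05 by the edgeR F test. Beside these stand 0% and 4.15% of all genes tested, and the median log2 fold change of the list was -0.48. For 7 of the 8, control 1 and ethanol 3 were the 2 highest libraries, as they were for Chat, Slc18a3, Slc5a7 and Ache among the members and for 11.0% of all genes tested. The pair was noticed on the members, so these shares are a description. Lhx8 and Isl1 are shown after their values were seen, as the rule for naming list genes gives Ngfr, Nkx2-1 and Zic4. Lhx8, a transcription factor of cholinergic neuron fate, was at 5.98, 0.366 and 1.04 CPM in control libraries 1, 2 and 3 and at 0.763, 0.435 and 2.92 CPM in ethanol libraries 1, 2 and 3. Ngfr, the low-affinity neurotrophin receptor, was at 10.1, 2.46 and 4.13 CPM and at 2.73, 2.80 and 6.28 CPM. Both genes were highest in control 1 and lowest in control 2, as Chat was. Isl1, a LIM homeodomain factor shared with striatal neurons, was highest in ethanol 3 at 1.74 CPM, against 1.12 CPM in control 1. Nkx2-1, a factor of the ventral forebrain from which these neurons arise, varied less, from 1.90 to 3.83 CPM. Zic4 was the gene of the list without this pattern, with log2 fold change -0.47 (unadjusted p = 0.0970).

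**Figure D3:**
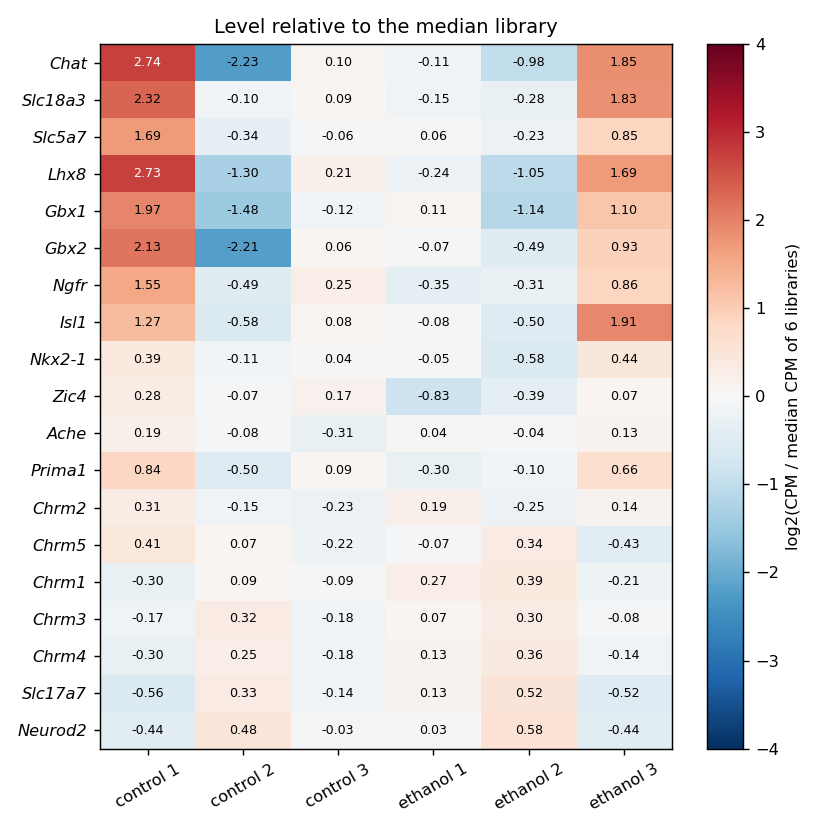
Log2 ratio of CPM to the median of the 6 libraries for cholinergic genes, genes of cholinergic neurons, muscarinic receptors and 2 genes of glutamatergic neurons, in each control and ethanol library. The list genes shown are a selection that the naming rule alone did not make, and Colq, Tbr1 and Camk2a are among those left out. Chat stood 2.74 above the median in control 1 and 1.85 above in ethanol 3, while Chrm1 stood 0.30 and 0.21 below it.

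Some lists of other cells the dissection could hold varied between the same libraries, and their part in the levels of Chat, Slc18a3 and Slc5a7 was not tested. Each count of genes with control 1 and ethanol 3 as the 2 highest libraries stands beside 11.0% of all genes tested. All 6 oligodendrocyte genes were highest in control 1 and ethanol 3, with Mbp at 2718 and 3650 CPM there and 1047 to 1982 CPM elsewhere, and their summed level was 3548 to 8377 CPM in control and 4354 to 9725 CPM in ethanol libraries. Of 10 striatal-type neuron genes, 6 had the same 2 highest libraries, and their sum was 402 to 575 CPM in control and 429 to 605 CPM in ethanol libraries. Of 8 genes of hypothalamus and thalamus, 3 did, with sums of 192 to 355 CPM and 207 to 590 CPM. Pmch, the melanin-concentrating hormone precursor of lateral hypothalamic neurons, reached 206 CPM in ethanol 3 and lay between 2.12 and 14.5 CPM in the other libraries. Of the 10 cortical-type glutamatergic genes, 7 had control 1 and ethanol 3 as the 2 lowest libraries (10.7% of all genes tested), and their sum was 1453 to 2034 CPM in control and 1457 to 2352 CPM in ethanol libraries. The central amygdala genes summed to 246 to 282 CPM in control and 275 to 283 CPM in ethanol libraries, and 2 of 8 had the pair as the highest. No list gene other than Otx2 of the choroid plexus list was at 3 counts or fewer in every library.

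Ache, which ends the signal by splitting acetylcholine, was far more abundant than the presynaptic genes and varied less between libraries than they did. Its position is chromosome 12 of Rnor_6.0, 22472358 to 22477052 (minus strand, 9 exon blocks). Its levels were 81.8, 67.6 and 57.8 CPM in control libraries 1, 2 and 3 and 73.5, 69.5 and 78.1 CPM in ethanol libraries 1, 2 and 3. The ethanol values lay inside the range of the controls, with control 1 and ethanol 3 again the highest of their groups. Ethanol over control gave a log2 fold change of 0.09 (standard error 0.12, 95% interval -0.18 to 0.37, edgeR adjusted p = 1.0). As a fold the interval reached from 0.880 to 1.29, the narrowest of the 9 genes. Its membrane anchor in brain, Prima1, named after its values were seen, was at 24.9, 9.83 and 14.8 CPM in the controls and 11.3, 13.0 and 22.0 CPM after ethanol, highest in control 1 and ethanol 3. Of the 16 genes of choline supply and acetylcholine breakdown described next, which include Prima1, 3 had this pair highest, beside 11.0% of all genes tested. The pair was lowest for 1 of the 16, beside 10.7% of all genes tested. This was Colq, also named after its values were seen, at 2.05 CPM in control 1, 2.07 CPM in ethanol 3 and 2.37 to 2.93 CPM elsewhere.

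Genes of choline supply and acetylcholine breakdown did not pass the test either. Of the 16 genes on this list, 0 had an adjusted p below 0.2 and 0 an unadjusted p below 0.05 (the edgeR F test). The shares of all genes tested were 0% and 4.15%. Log2 fold changes of the list ran from -0.20 to 0.21 with a median of -0.01. Groups that did not overlap were found for 1 of the 16, beside 8.85% of all genes tested. This was Pemt, which makes phosphatidylcholine by methylation, at 2.41 ± 0.0719 and 2.79 ± 0.166 CPM (SD, n = 3 each) in control and ethanol libraries. Its unadjusted p was 0.120 by the edgeR F test. Gde1, a glycerophosphodiester phosphodiesterase, had a log2 fold change of 0.13 (unadjusted p = 0.0718). The most abundant were Acly, a source of acetyl-CoA in the cytosol, with 302 ± 5.48 and 302 ± 9.15 CPM in control and ethanol libraries (SD, n = 3 each), and Slc44a1, a choline transporter of many cell types, with 114 ± 16.7 and 126 ± 16.2 CPM (SD, n = 3 each).

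Levels of different genes were compared as CPM per kb of exon (TMM-scaled CPM over the summed exon length of the counting annotation). Ache came first with 34.6 ± 4.11 CPM per kb (SD, n = 6 libraries) and Chrm1 next with 31.3 ± 5.99 (SD, n = 6), and neither was above the other in more than 3 of 6 libraries. Chrm4 (7.04 ± 1.30) and Chrm3 (5.49 ± 0.868) followed on the same scale. Their ranges overlapped, although Chrm4 was above Chrm3 in 6 of 6 libraries. This order rests on the annotated exon lengths, 3838 bases for Chrm4 and 9807 for Chrm3. In CPM, Chrm3 was the higher, with means of 52.1 in control and 55.6 in ethanol libraries, against 25.3 and 28.8 for Chrm4. Per length, Chrm1 and Chrm4 did not overlap, nor did Chrm3 and Chrm5. Chrm5 (2.62 ± 0.578) and Chrm2 (2.14 ± 0.358) were close, with Chrm5 higher in 4 of 6 libraries. Slc5a7 (1.61 ± 1.06), Chat (0.716 ± 0.831) and Slc18a3 (0.581 ± 0.507) came last with overlapping ranges, and Chat was above Slc18a3 in 4 of 6 libraries. The receptors and the breakdown enzyme were thus present at higher mRNA levels per length than the genes of synthesis and vesicle loading, with the exception of Slc5a7 in the libraries rich in Chat: its 3.59 CPM per kb in control 1 exceeded Chrm2 and Chrm5 there, and its 2.01 CPM per kb in ethanol 3 exceeded Chrm5 (1.89) but not Chrm2 (2.33).

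Chrm1, the main Gq-coupled muscarinic receptor of forebrain principal neurons, had the highest receptor level. Its position is chromosome 1 of Rnor_6.0, 224869087 to 224885101 (plus strand, 3 exon blocks). Its levels were 89.1, 116 and 103 CPM in control libraries 1, 2 and 3 and 132, 144 and 94.5 CPM in ethanol libraries 1, 2 and 3. Ethanol 1 and 2 were above every control and ethanol 3 was within the control range, so the groups overlapped. Controls averaged 103 ± 13.6 CPM and ethanol libraries 123 ± 25.8 CPM (SD, n = 3 each), which is 0.26 as a log2 fold change (standard error 0.16, 95% interval -0.11 to 0.64). By the edgeR F test its p was 0.141 unadjusted and 1.0 adjusted, and the exact permutation test gave p = 0.3. Without ethanol 3 the log2 fold change was 0.42, with an edgeR p of 0.00637 unadjusted and 0.369 adjusted, in a fit where 1629 of 18356 genes had an unadjusted p below 0.05, and without ethanol 2 it was 0.14.

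Chrm3, also coupled to Gq, lies on chromosome 17 from 63990599 to 64463222 (minus strand, 8 exon blocks with 9807 bases of exon). Its levels were 46.0, 64.6 and 45.7 CPM in the controls and 54.3, 63.6 and 49.0 CPM after ethanol. The ethanol values lay within the range of the controls, with control 2 and ethanol 2 highest. The log2 fold change was 0.09 (standard error 0.15, 95% interval -0.26 to 0.45, edgeR adjusted p = 1.0). Chrm5, the Gq-coupled receptor best known from midbrain dopamine neurons, lies on chromosome 3 from 103966451 to 104018815 (minus strand, 2 exon blocks). Its levels were 7.92, 6.25 and 5.12 CPM in the controls and 5.67, 7.52 and 4.44 CPM after ethanol. Control 1 was the highest and ethanol 3 the lowest, so Chrm5 did not follow Chat in the latter library. Ethanol over control gave a log2 fold change of -0.13 (standard error 0.22, 95% interval -0.65 to 0.39, edgeR adjusted p = 1.0).

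Chrm2, the Gi-coupled receptor that serves as an autoreceptor on many cholinergic terminals, lies on chromosome 4 from 64089028 to 64091090 (plus strand). The counting annotation gives it a single block of 2063 bases. Its levels were 5.41, 3.93 and 3.72 CPM in control libraries 1, 2 and 3 and 4.98, 3.68 and 4.81 CPM in ethanol libraries 1, 2 and 3. Control 1 was highest, and the groups covered nearly the same range. The log2 fold change was 0.05 (standard error 0.18, 95% interval -0.38 to 0.47, edgeR adjusted p = 1.0). Chrm4, the Gi-coupled receptor known from striatal projection neurons and cholinergic interneurons, lies on chromosome 3 from 80833272 to 80841165 (plus strand, 3 exon blocks). Of its exon bases, 163 overlap Mdk on the opposite strand, which the strand-specific counting keeps apart. Its levels were 21.3, 31.2 and 23.2 CPM in the controls and 28.8, 33.8 and 23.8 CPM after ethanol. Ethanol over control gave a log2 fold change of 0.19 (standard error 0.17, 95% interval -0.21 to 0.58, edgeR adjusted p = 1.0). Without control 1 it was 0.07, without ethanol 2 it was 0.056, and without control 2 it was 0.37.

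Chrm4 was highest in ethanol 2 and control 2 and lowest in control 1. Slc17a7, the vesicular glutamate transporter of cortical-type neurons, had the same highest and lowest libraries, at 413, 770 and 554 CPM in control libraries 1, 2 and 3 and at 668, 879 and 425 CPM in ethanol libraries 1, 2 and 3. Tbr1 of the same list was instead highest in ethanol 1 (22.8 CPM) and lowest in control 2 (13.7 CPM). Of the 10 cortical-type genes, 7 had control 1 and ethanol 3 as the 2 lowest libraries, beside 10.7% of all genes tested. Of the 10 striatal-type genes, 6 had them as the 2 highest, beside 11.0% of all genes tested. Chrm4 itself was lowest in control 1 and control 3 (21.3 and 23.2 CPM). Whether the cells that carry Chrm4 here are of the cortical or the striatal type was not tested.

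**Figure D4:**
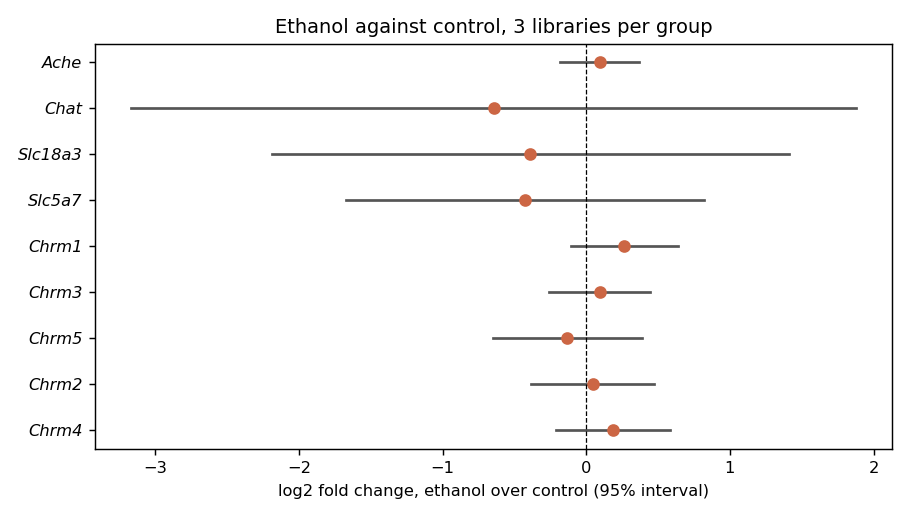
Log2 fold change (ethanol over control) of the 9 genes from the edgeR fit, with 95% intervals (lines). Each interval includes 0, and that of Chat, from -3.17 to 1.88, is the widest.

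Chrm1 held most of the muscarinic receptor mRNA in each library. The summed level was 40.9, 51.5 and 43.2 CPM per kb in control libraries 1, 2 and 3 and 54.4, 60.1 and 41.6 CPM per kb in ethanol libraries 1, 2 and 3. Chrm1 made up 62.9 ± 2.86% of it (SD, n = 3) in controls and 65.5 ± 2.23% (SD, n = 3) after ethanol. Chrm4 made up 14.5 ± 1.18% and 14.4 ± 0.583%, and Chrm3 11.7 ± 1.02% and 11.0 ± 0.940%. Chrm5 made up 6.15 ± 1.81% and 4.77 ± 0.484%, with 8.24% in control 1 and 4.44 to 5.32% in the other libraries. Chrm2 made up 4.76 ± 1.45% and 4.34 ± 1.32%, highest in control 1 (6.42%) and ethanol 3 (5.61%). The Gi-coupled Chrm2 and Chrm4 together held 19.2 ± 0.929% in controls and 18.8 ± 1.53% after ethanol, and the difference was smaller than the spread between libraries. No test was run on these shares, which also depend on the annotated exon lengths.

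**Figure D5:**
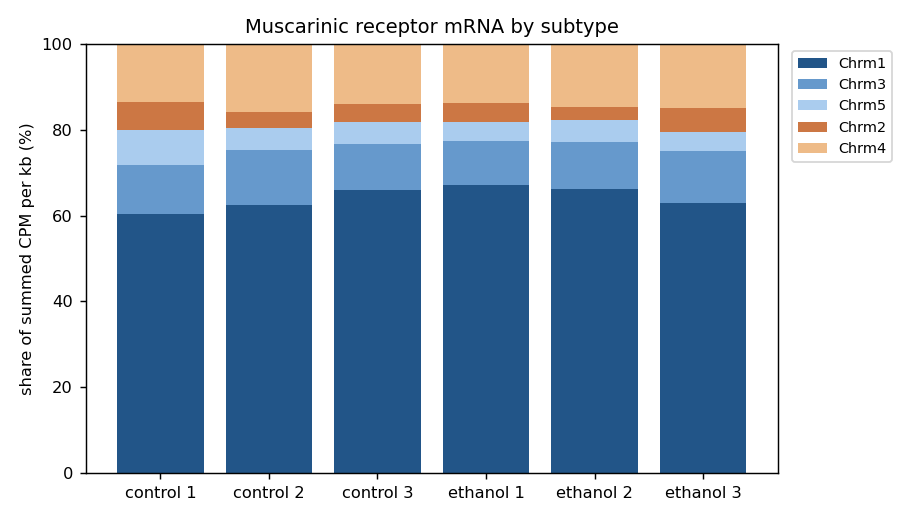
Share (%) of each muscarinic receptor in the summed CPM per kb of the 5 receptors, one bar per library, with the Gq-coupled receptors in blue and the Gi-coupled in orange. Chrm1 held between 60.3% and 67.2% in each of the 6 libraries.

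Among genes that act downstream of muscarinic receptors, Kcnq3 alone had an unadjusted p below 0.05. Of 23 such genes, 0 had an adjusted p below 0.2, and 1 was higher and 0 were lower at an unadjusted p below 0.05, beside 1.57% higher and 2.57% lower of all genes tested by the edgeR F test. The median log2 fold change was 0.05. Kcnq3, a subunit of the M-current potassium channel that muscarinic signals close, was at 58.7 ± 3.87 and 68.9 ± 7.93 CPM (SD, n = 3 each) in control and ethanol libraries, or 0.23 on the log2 scale (unadjusted p = 0.0403, edgeR adjusted p = 1.0), and its groups overlapped. Itpr1, the calcium release channel opened by inositol trisphosphate, had a log2 fold change of 0.16 (unadjusted p = 0.0720). Gnao1, the abundant Go subunit, had 502 ± 13.9 CPM in controls and 540 ± 23.5 CPM after ethanol (SD, n = 3 each) (unadjusted p = 0.178). It was 1 of 3 genes of this list whose groups did not overlap, beside 8.85% of all genes tested. The others, named after their values were seen, were the receptor kinase Grk2, with 209 ± 4.99 and 223 ± 5.83 CPM in control and ethanol libraries, and the arrestin Arrb2, with 58.8 ± 0.434 and 55.2 ± 1.26 CPM (SD, n = 3 each).

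The other lists held 0 genes at an adjusted p below 0.2 (edgeR F test), and their counts at an unadjusted p below 0.05 stand beside 1.57% higher and 2.57% lower of all genes tested. In the cortical-type list this was 1 of 10 genes, Tbr1, a transcription factor of glutamatergic projection neurons, with 14.6 ± 0.758 and 21.3 ± 1.44 CPM in control and ethanol libraries (SD, n = 3 each), groups that did not overlap, and an edgeR adjusted p of 0.818. Slc17a7 and Camk2a of this list had log2 fold changes of 0.18 and 0.16. In the central amygdala list it was 1 of 8, the neuropeptide gene Cartpt (log2 fold change 0.45), beside 0.73 for Tac3, 0.0009 for Sst and -0.04 for Calcrl. In the choroid plexus list it was 3 of 7 tested, all lower after ethanol: Kcnj13 (-1.76), Folr1 (-1.71) and Kl (-1.98), with -2.39 for Ttr and -1.85 for Clic6. The study reported Tbr1 as higher and Kcnj13 as lower after ethanol, in its RNA-seq and by qPCR. Ttr, the transthyretin gene, was at 461, 995 and 817 CPM in control libraries 1, 2 and 3 and at 5.42, 4.34 and 425 CPM in ethanol libraries 1, 2 and 3, an order unlike that of Chat. The striatal-type, hypothalamus and thalamus, and oligodendrocyte lists had 0 such genes. Log2 fold changes there were 0.34 for Ppp1r1b, 0.18 for Pde10a, 0.18 for Penk and -0.38 for Tac1, then 1.71 for Hcrt, 3.21 for Pmch, 0.24 for Slc17a6 and 0.23 for Calb2, and 0.24 for Mbp, 0.19 for Mag and 0.16 for Cnp.

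The patterns most like those of single members were sought over all 6 libraries as Pearson's r of log2 CPM among 14071 genes with a symbol and at least 1 CPM in each group, with no test. The genes most like Chat were Top2a, Rtca, Selenok, Hivep1 and Tomm5, with r of 0.99 each. Rtca had ethanol 1 (44.6 CPM) just above control 3 (44.3 CPM), and the others ordered the libraries as Chat did. The steps of these genes were small, since their highest library exceeded their lowest by 1.19-fold to 1.28-fold, against 31.4-fold for Chat. The points share their libraries, and control 1 and ethanol 3 stood apart from the rest in Chat. Mlnr, Gpr165 and LOC108349640 were most like Chrm2, with r of 0.99 to 1.00, and differed by 1.51-fold to 1.68-fold between libraries. Pcgf3, Lrrc4b and Eif4e3 were most like Chrm4, each with r of at least 0.99 and a difference of 1.20-fold to 1.22-fold between libraries.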

How the data were processed

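Per the labels, single-end reads of 100 nt were trimmed of adaptors, and the submitters' processing notes name STAR 2.7.0f. The deposited raw counts, per the file headers, came from featureCounts 1.6.3 with the reverse-stranded setting (2) over the exons of each Rnor_6.0 gene, without reads that align to several places or overlap several genes. Symbols were matched for 29322 of 38445 genes through a RefSeq gene table (GRCr8), used for names only, and 1 list name through a synonym (Tac2, now Tac3). The members and the gene lists were chosen with earlier results of these data known.

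Counts were analysed in R 4.3.3 with edgeR 4.0.16: filterByExpr (minimum count 10, total 15), TMM scaling, quasi-likelihood F test of ethanol against control without a covariate, and Benjamini-Hochberg adjustment over 18141 genes. The standard error is the absolute log2 fold change over the square root of F. Log2 CPM carries a prior count of 2. Exact permutation tests use all 20 arrangements. Alternatives were other scalings, no filter, edgeR's likelihood ratio test, DESeq2 1.42.0, limma-voom (limma 3.58.1), each library left out and the replicate number as a block. The 2 members of each list with the smallest p and the 2 with the most counts were named, with every member at an unadjusted p below 0.05. Some list genes are counted with their list but not reported here by name. Planned correlations among Chat, Slc18a3, Slc5a7 and Ache with p-values are not given, because control 1 and ethanol 3 stood apart. Nothing in the labels says whether libraries were prepared apart, so p-values measure the spread between pools.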

Additional observations from a re-analysis of the deposited data

How the results depend on the processing

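No member had an adjusted p below 0.2 in any of 14 alternatives (smallest 0.369, Chrm1 without ethanol replicate 3). Over all genes the main count of 0 became 77 with edgeR's likelihood ratio test and 75 with DESeq2, 87 without control 1 and ethanol 3 together (a setting added after the data were seen), and 0 to 83 with single libraries left out (83 without ethanol replicate 3 and 4 without ethanol replicate 1). That count stayed 0 with limma-voom, the other scalings, no filter and the replicate block. Members with an unadjusted p below 0.05 numbered 0 to 2 with single libraries left out (Chrm3 and Chrm4 without control 2, Ache without control 1, Chrm1 without ethanol 3) and 1 (Chrm1) without both libraries. In these fits the genes at that p numbered 689 of 18391 without control 2, 719 of 18387 without control 1, 1629 of 18356 without ethanol 3 and 1374 of 18182 without both. Chrm1 and Chrm4 kept their sign in each alternative. With single libraries left out, log2 fold changes ran from -1.88 to 1.41 for Chat, -1.43 to 0.82 for Slc18a3, -0.81 to 0.50 for Slc5a7, 0.14 to 0.42 for Chrm1, 0.056 to 0.37 for Chrm4, -0.019 to 0.23 for Ache, -0.054 to 0.23 for Chrm2, -0.013 to 0.28 for Chrm3 and -0.35 to 0.037 for Chrm5. Chat also turned to 0.12 with limma-voom, and without both libraries Chat became 0.17, Slc5a7 0.11 and Chrm5 0.20. The cause was not tested. With library size only, levels per length moved by less than 1 SD (receptor shares within a library cannot move under such a scaling).

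The replicate numbers 1, 2 and 3 are shared by the groups, but deviations of same-numbered libraries correlated by 0.0264, 0.388 and 0.211 over 14241 genes, and not every library correlated best with its own number (control 1 did with ethanol 3, 0.305), so the numbers were not taken as pairs. With the replicate number as a block, 0 genes and 0 members had an adjusted p below 0.2, 1015 genes had an unadjusted p below 0.05, and the log2 fold change was -0.07 for Chat and 0.25 for Chrm1. Depth did not limit the receptors and Ache, whose lowest count was 236, while Chat had only 18 counts in control 2.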
